A study of Mus musculus with 16 samples.

Results

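Complexes III and IV of the respiratory chain and the ATP synthase were examined through their nuclear-encoded subunit genes in mouse osteoclast cultures. Members were all rows whose symbol starts with Uqcr, Cox4, Cox5, Cox6, Cox7, Cox8 or Atp5, together with Cyc1. This rule gave 44 of the 21936 genes in the count table. Of these, 9 belong to complex III, 18 to complex IV and 17 to the ATP synthase, and all 44 are annotated as protein coding. The rule used names alone and no measured value. A minimum-count filter kept 40 of the 44 among 12093 genes tested, and the other 4, all of complex IV, are accounted for with their paralogues.

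Poly(A) RNA was sequenced from 16 cultures of C57BL/6J mice, 4 of each genotype. The genotypes were FLT3 ITD Ptprc KO, called the double mutant here, FLT3 ITD alone, Ptprc KO alone, and WT. FLT3 ITD is a knocked-in internal tandem duplication of the receptor kinase gene Flt3, a lesion known from acute myeloid leukaemia. Ptprc encodes CD45, the receptor phosphatase of blood cells. Every culture was grown from CD11b+ bone marrow cells, first in M-CSF at 50 ng/ml for 3 days and then with RANKL at 20 ng/ml added. RNA was taken when mature osteoclasts first appeared, between day 3 and day 5, and the day is not given library by library. No library is labelled as treated with AC220, an FLT3 inhibitor that the shared culture protocol names. The labels give no age or sex of the mice and do not say that the 4 cultures of a group came from separate animals. The p-values therefore measure the spread between these cultures, which may in part be technical.

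Complex III passes electrons from ubiquinol to cytochrome c, and complex IV passes them from cytochrome c to oxygen. Both pump protons across the inner mitochondrial membrane, and the ATP synthase uses the gradient to make ATP. Mitochondrial DNA encodes the catalytic core of complex IV, the cytochrome b of complex III and part of the ATP synthase membrane domain. The genes described here supply other subunits from the nucleus, and the name rule may not take in all of them. Osteoclasts are large multinucleated cells rich in mitochondria, and resorption of bone relies on an ATP-driven proton pump.

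The libraries held 24211724 to 35773313 counts. Ptprc stood at 64.8 ± 15.3 CPM (counts scaled to the library total) in the double mutant, 401 ± 129 in FLT3 ITD, 38.7 ± 6.45 in Ptprc KO and 454 ± 28.5 in WT (mean ± SD, n = 4 each), low in both groups labelled KO. The osteoclast marker Ctsk, a collagen-degrading cathepsin, averaged 3245 CPM in the double mutant, 11686 in FLT3 ITD, 10933 in Ptprc KO and 8157 in WT. Calcr was lowest of 14 such markers: 14.2 CPM in the double mutant, 69.8 in FLT3 ITD, 137 in Ptprc KO and 76.8 in WT. Libraries differed widely within groups. FLT3 ITD library 2 stood apart from all others by gene length: its level relative to the mean of the libraries went down with length (Spearman rho -0.46 over genes, against -0.181 to 0.181 in the others). FLT3 ITD libraries 1 and 3 were far more alike than any other libraries of one group (their counts gave a mean chi-square of 2.77, while the next most alike libraries gave 13.0). They differed by more than counting noise, which does not show that they are separate cultures, and the labels do not say. If they share a culture or an RNA, n is 3 in FLT3 ITD wherever 4 is given. They were kept as 2 libraries, and the main counts and medians of the comparisons with FLT3 ITD are also given with libraries 1 and 3 summed or library 2 left out. Levels and fold changes of single genes are given with all libraries.

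The subunit genes were among the abundant transcripts of the cultures. Their levels per length summed to 1.5 ± 0.526% of all TPM (transcripts scaled for gene length and library) in the double mutant, 2.44 ± 1.0% in FLT3 ITD, 2.28 ± 0.561% in Ptprc KO and 2.07 ± 0.352% in WT (mean ± SD, n = 4 each). The lowest and highest libraries gave 1.02 to 2.24% in the double mutant, 1.21 to 3.67% in FLT3 ITD, 1.52 to 2.77% in Ptprc KO and 1.58 to 2.42% in WT. All 4 ranges overlapped, and without library 2 FLT3 ITD averaged 2.03 ± 0.716% (n = 3), a setting chosen after seeing the data. By mean TPM over the 16 libraries the order was headed by Atp5b, Atp5a1, Cox6b1, Cox4i1, Cox6a1, Cox8a and Uqcr10. In complex III the means of the 9 genes ran down to 253 TPM for Uqcrq. At the other end, Atp5l averaged 5.62 TPM, Cox6a2 4.11, Cox6b2 1.53 and Cox4i2 0.447. The value of Atp5l is uncertain, since 11 annotated genes are at least 95% identical to it over 200 bases or more. On GRCm38, Uqcr10 lies at chr11:4701973-4704342 (- strand), Cox4i1 at chr8:120668222-120674207 (+ strand), Atp5b at chr10:128083273-128090391 (+ strand), Atp5md at chr19:47083464-47090647 (- strand), Atp5e at chr2:174461072-174464105 (- strand) and Cox6a2 at chr7:128205435-128206387 (- strand), in GENCODE M21.

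Several promoters of these genes carry recognition letters of NRF1 and of ETS factors such as GABP, both known regulators of nuclear-encoded respiratory genes. The part of these letters in the levels of the genes was not tested. RefSeq promoters (250 bases before to 50 after the annotated start, GRCm38.p6) were held for 33 members, 36 promoters in all. The NRF1 letters, GCGC followed by any base and TGCGC, were found on either strand in 8 of the 36 promoters (22.2%). They were in 22.7% of 44 promoters of genes named Nduf, called complex I here, and in 4.60% of all 32851 promoters. The ETS core CTTCCG was found in 19 of 36 (52.8%), in 36.4% of complex I promoters and in 16.9% of all. The ERR letters AAGGTCA were in 11.1% of the members' promoters, 6.82% of those of complex I and 4.72% of all, and the YY1 letters AAGATGG in 11.1%, 18.2% and 6.34% of the same sets. Median GC content was 55.8% in the members' promoters, 59.3% in those of complex I and 52.7% in all. Any of the 4 motifs (the stricter letters aside) was found in 23 of the 36 promoters (63.9%) and in 28.5% of all promoters. A match is a description of letters in this window and not a bound site. The 250 bases before the start are printed 5′ to 3′ for 5 genes, with NRF1 and ETS matches on either strand in capitals. Uqcrc1 and Atp5b stand here as the genes of complex III and of the ATP synthase that are given in every comparison. Uqcr11, Cox6a1 and Atp5h were added after their matches had been seen.
Uqcrc1 (chr9:108936398-108936647, + strand): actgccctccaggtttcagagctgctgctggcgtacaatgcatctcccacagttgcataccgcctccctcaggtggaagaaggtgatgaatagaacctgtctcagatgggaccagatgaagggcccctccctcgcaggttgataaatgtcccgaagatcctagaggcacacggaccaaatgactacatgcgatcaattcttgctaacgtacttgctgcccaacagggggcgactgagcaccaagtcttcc
Uqcr11 (chr10:80406822-80407071, - strand): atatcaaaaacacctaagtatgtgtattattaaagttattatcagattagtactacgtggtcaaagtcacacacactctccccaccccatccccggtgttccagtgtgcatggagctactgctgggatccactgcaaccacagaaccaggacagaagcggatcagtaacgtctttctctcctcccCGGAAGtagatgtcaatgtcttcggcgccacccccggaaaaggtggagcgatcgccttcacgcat
Cox6a1 (chr5:115348959-115349208, - strand): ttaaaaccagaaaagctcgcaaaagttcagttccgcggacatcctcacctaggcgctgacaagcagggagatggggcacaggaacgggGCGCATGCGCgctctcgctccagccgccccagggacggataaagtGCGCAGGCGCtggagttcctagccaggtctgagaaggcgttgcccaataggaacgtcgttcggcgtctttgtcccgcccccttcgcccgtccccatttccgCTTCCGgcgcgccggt
Atp5b (chr10:128083057-128083306, + strand): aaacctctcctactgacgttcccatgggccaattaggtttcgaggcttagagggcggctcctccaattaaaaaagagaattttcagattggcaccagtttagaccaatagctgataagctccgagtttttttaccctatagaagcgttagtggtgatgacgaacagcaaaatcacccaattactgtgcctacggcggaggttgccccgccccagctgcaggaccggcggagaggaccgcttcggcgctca
Atp5h (chr11:115419920-115420169, - strand): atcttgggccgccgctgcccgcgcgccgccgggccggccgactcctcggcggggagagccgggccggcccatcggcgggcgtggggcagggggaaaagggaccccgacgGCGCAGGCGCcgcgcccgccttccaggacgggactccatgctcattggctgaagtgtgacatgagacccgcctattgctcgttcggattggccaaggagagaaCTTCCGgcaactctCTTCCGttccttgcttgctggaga
Cox6a1 shows 2 NRF1 matches and 1 ETS match in this stretch, Atp5h shows 1 NRF1 match and 2 ETS matches, and Uqcr11 shows 1 ETS match on the opposite strand. None of the 4 motifs was found in the printed stretches of Uqcrc1 and Atp5b, and the 2 NRF1 matches of the Uqcrc1 promoter end after its start, beyond the printed bases.

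Uqcrc1 had the highest mean count of complex III, 13623 against 5280 for Uqcr10. By mean TPM complex III was led by Uqcr10, a small membrane subunit next to cytochrome c1. Its level was 481, 369, 1059 and 567 TPM in the 4 double mutant libraries and 1207, 2323, 1308 and 492 TPM in FLT3 ITD. It was 1080.0, 1409, 1569.8 and 742 TPM in Ptprc KO and 1027, 1264, 712 and 1089 TPM in WT. Double mutant libraries 1, 2 and 4 and FLT3 ITD library 4 were the lowest, and double mutant library 3 lay among the WT libraries. Uqcrfs1, the Rieske iron-sulphur protein, stood at 335, 251, 754 and 369 TPM in the double mutant and 858, 1291, 841 and 323 TPM in FLT3 ITD. It stood at 695, 889, 960.4 and 456 TPM in Ptprc KO and 659, 785, 503 and 702 TPM in WT, with the same 4 libraries lowest and FLT3 ITD library 2 highest. Uqcrb, a ubiquinone-binding subunit, had 375, 292, 623 and 444 TPM in the double mutant and 697, 1229, 698 and 375 TPM in FLT3 ITD. It had 606, 751, 839 and 451 TPM in Ptprc KO and 638, 700.3, 468 and 637 TPM in WT, and the 4 ranges overlapped. Uqcrc1, a core subunit of the matrix side, had 205, 164, 442 and 236 TPM in the double mutant and 494, 558, 496 and 173 TPM in FLT3 ITD. It had 432, 522, 579.9 and 256 TPM in Ptprc KO and 417, 479, 274 and 409 TPM in WT. Here FLT3 ITD library 2 lay only a little above libraries 1 and 3, while for Uqcr10 and Uqcrb it was far above them.

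Cox4i1 had the highest mean count of complex IV, 17391 against 8958 for Cox6b1. By mean TPM complex IV was led by Cox6b1, a subunit of the intermembrane side. Its level was 953, 794, 1515 and 1142 TPM in the double mutant and 1607, 2813, 1641 and 965 TPM in FLT3 ITD. It was 1515, 1751, 1801 and 1093 TPM in Ptprc KO and 1455, 1585, 1112 and 1453 TPM in WT, and the 4 ranges overlapped. Cox4i1, a large nuclear-encoded subunit that takes part in the regulation of the enzyme, had 747, 724, 1433 and 835 TPM in the double mutant and 1562, 2338, 1518 and 868 TPM in FLT3 ITD. It had 1305, 1630.3, 1676 and 952 TPM in Ptprc KO and 1316, 1452, 1007 and 1345 TPM in WT. Double mutant library 3 was far above the other 3 libraries of its group and within the WT range. Cox6a1, the widely expressed form of subunit 6a, had 676, 532, 1217 and 700.1 TPM in the double mutant and 1266, 2362, 1315 and 665 TPM in FLT3 ITD. It had 1136, 1468, 1458 and 789 TPM in Ptprc KO and 1135, 1298, 844 and 1157 TPM in WT, again with overlapping ranges.

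In the ATP synthase the highest levels were those of Atp5b and Atp5a1, the catalytic beta and the alpha subunit of the F1 head, and of Atp5g3, one of the genes for the c subunit of the membrane rotor. Atp5b had 1055, 739.7, 1936 and 1309.5 TPM in the double mutant and 2098, 1938, 2085 and 765 TPM in FLT3 ITD. It had 1871, 2143, 2280.3 and 1126 TPM in Ptprc KO and 1837, 2051, 1194 and 1802 TPM in WT. FLT3 ITD library 4 was as low as double mutant library 2, and the other 3 FLT3 ITD libraries lay within the range of Ptprc KO and WT. Atp5a1 had 1044, 802, 1890.3 and 1237 TPM in the double mutant and 2037, 1843, 2051 and 815 TPM in FLT3 ITD. It had 1844, 2139.7, 2247 and 1204 TPM in Ptprc KO and 1809, 1972, 1304 and 1782 TPM in WT, and the groups overlapped. Atp5g3 had 496, 355, 844 and 595 TPM in the double mutant and 979.8, 1617, 990.2 and 425 TPM in FLT3 ITD. It had 909, 1051, 1170.4 and 609 TPM in Ptprc KO and 853, 969, 642 and 817 TPM in WT. In contrast to Atp5b, its highest library was FLT3 ITD library 2, well above the rest.

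Other subunits are given by their group levels (mean ± SD, n = 4 each). In complex III, Cyc1, the cytochrome c1 that hands electrons to cytochrome c, averaged 332 ± 178 TPM in the double mutant, 567 ± 249 in FLT3 ITD, 572 ± 176 in Ptprc KO and 519 ± 127 in WT. Uqcrc2, the partner of Uqcrc1 in the core, averaged 355 ± 187 TPM in the double mutant, 569 ± 242 in FLT3 ITD, 648 ± 227 in Ptprc KO and 569.6 ± 135 in WT. Uqcrh, the hinge protein at the docking site of cytochrome c, averaged 391 ± 158 TPM in the double mutant, 717 ± 349.7 in FLT3 ITD, 628 ± 145 in Ptprc KO and 563 ± 64.3 in WT. For Cyc1 and Uqcrc2 the FLT3 ITD mean was within 1 SD of the WT mean, and the double mutant mean was the lowest for all 3.

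In complex IV, Cox5a, a subunit of the matrix side, averaged 324 ± 74.4 TPM in the double mutant, 492 ± 227 in FLT3 ITD, 437 ± 94.1 in Ptprc KO and 408 ± 62.4 in WT. Cox5b, a zinc-binding subunit next to it, averaged 248 ± 81.6 TPM in the double mutant, 391 ± 156 in FLT3 ITD, 371 ± 92.9 in Ptprc KO and 335 ± 58.8 in WT. Cox7b, a small membrane subunit, averaged 416 ± 122 TPM in the double mutant, 671 ± 286 in FLT3 ITD, 616 ± 154 in Ptprc KO and 553 ± 80.8 in WT. In all 3 the double mutant mean was the lowest and the FLT3 ITD mean the highest, with the largest SD in FLT3 ITD.

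In the ATP synthase, Atp5c1, the gamma subunit that turns within the F1 head, averaged 485 ± 158 TPM in the double mutant, 665 ± 234 in FLT3 ITD, 677 ± 161 in Ptprc KO and 638 ± 94.8 in WT. Atp5d, the delta subunit of the central stalk, averaged 353 ± 146 TPM in the double mutant, 565 ± 244 in FLT3 ITD, 512 ± 119 in Ptprc KO and 458 ± 75.6 in WT. Atp5o, the OSCP that joins the head to the peripheral stalk, averaged 128 ± 42.5 TPM in the double mutant, 205 ± 103 in FLT3 ITD, 185 ± 45.3 in Ptprc KO and 175 ± 27.9 in WT. For these 3 the double mutant mean was again the lowest. Atp5pb, the b subunit of the peripheral stalk, averaged 244 ± 73.2 TPM in the double mutant, 377 ± 157 in FLT3 ITD, 353 ± 82.9 in Ptprc KO and 327 ± 58.8 in WT. Atp5h, the d subunit of the same stalk, averaged 349 ± 84.3 TPM in the double mutant, 562 ± 242 in FLT3 ITD, 469 ± 83.1 in Ptprc KO and 429.6 ± 52.5 in WT. In both of these the double mutant mean was the lowest and the FLT3 ITD mean the highest. Atp5k, the membrane subunit e, had 439, 320.0, 553 and 499 TPM in the double mutant and 604, 1484, 656 and 412 TPM in FLT3 ITD. It had 657, 725, 791 and 497 TPM in Ptprc KO and 629, 711, 466 and 603 TPM in WT. Library 2 of FLT3 ITD was far above all others.

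**Figure D1:**
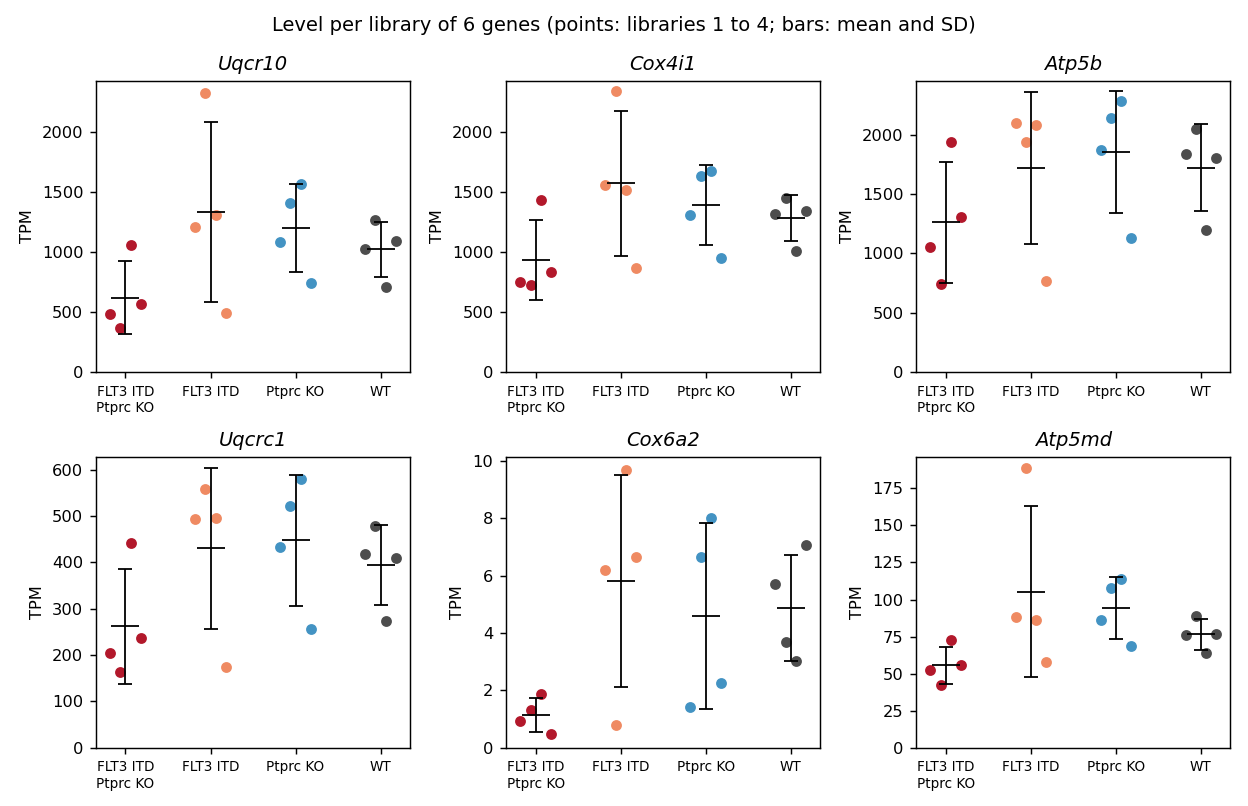
TPM of 6 subunit genes in each library (points, libraries 1 to 4 from left to right), with the mean and SD of 4 libraries, for FLT3 ITD Ptprc KO, FLT3 ITD, Ptprc KO and WT. Double mutant libraries 1, 2 and 4 lie low in the panels of Uqcr10, Cox4i1 and Uqcrc1, and FLT3 ITD library 2 is the highest point for Uqcr10, Cox4i1 and Atp5md but the lowest of its group for Cox6a2.

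Loss of CD45 in FLT3 ITD cultures was addressed by the double mutant against FLT3 ITD. All 40 tested genes had a lower fitted level in the double mutant, with log2 fold changes of -2.38 to -0.42 and a median of -0.94, where the median over all 12093 genes was 0.027. Across all genes, 48% had a log2 fold change below 0. None of the 40 passed edgeR's quasi-likelihood test at an adjusted p of 0.05 (0.00827% of all genes did), and the lowest adjusted p among them was 0.109. At an unadjusted p under 0.05, 38 of the 40 were lower, against 13.7% of all genes lower. DESeq2 called 18 of the 40, all lower, against 4.77% of its tested genes lower, and limma on log2(TPM + 1) called none.

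The complexes differed little in this comparison: the median log2 fold change was -1.07 for complex III, -0.94 for complex IV and -0.92 for the ATP synthase. Among complex III genes, Uqcr10 had a log2 fold change of -1.37 ± 0.43 (SE) and Uqcrc1 one of -0.92 ± 0.37 (SE). For Cox4i1 it was -0.98 ± 0.31 (SE), with an adjusted p of 0.116 in edgeR. The lowest p-values belonged to Cox6a2, the striated-muscle form of subunit 6a, to Atp5md and to Cox7c, a small complex IV subunit. Cox6a2 had 6, 8, 11 and 4 counts in the double mutant, against 39, 4, 64 and 36 in FLT3 ITD. Library 2 of FLT3 ITD was as low as the double mutant. The log2 fold change was -2.38 ± 0.68 (SE) with an adjusted p of 0.109 in edgeR. Cox7c had 60.5, 51.8, 85.8 and 63.5 CPM in the double mutant, against 103, 240.1, 101 and 78.8 CPM in FLT3 ITD. Its groups overlapped through double mutant library 3, and the log2 fold change was -1.0 ± 0.30 (SE) with an adjusted p of 0.114 in edgeR.

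Atp5md, also known as DAPIT, a small membrane subunit linked to dimers of the ATP synthase, and Atp5e, the epsilon subunit of the central stalk, were the 2 genes whose library ranges did not overlap, both lower in the double mutant (3.52% of all genes were lower without overlap). Atp5md had 43.0, 38.6, 58.8 and 43.2 CPM in the double mutant, against 74.5, 205, 74.1 and 59.5 CPM in FLT3 ITD. The gap between the groups was narrow, since double mutant library 3 and FLT3 ITD library 4 were nearly equal. The log2 fold change was -1.17 ± 0.33 (SE) with an adjusted p of 0.109 in edgeR. Atp5e had 94.8, 93.5, 115 and 103 CPM in the double mutant, against 129.9, 355, 136 and 133 CPM in FLT3 ITD. Its log2 fold change was -0.89 ± 0.28 (SE) with an adjusted p of 0.115 in edgeR, and 1 FLT3 ITD library, library 2, was far above the other 3. The smallest difference was that of Atp5l, at -0.42 ± 0.23 (SE). Atp5b, with a log2 fold change of -0.65 ± 0.33 (SE) and an adjusted p of 0.222 in edgeR, differed less than most.

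Single libraries decided whether genes were called here. Without FLT3 ITD library 4, the lowest of its group, edgeR called 35 of the 40 lower (8.01% of all genes), and without double mutant library 3, the highest of its group, it called 24 (7.57% of all genes). Of these, 22 were called in both fits. In the other direction, without FLT3 ITD library 2 none was called, 12 of the 40 were lower at an unadjusted p under 0.05 (6.37% of all genes were) and the median log2 fold change was -0.52, where all genes had 0.022. With libraries 1 and 3 summed as 1, none was called, 35 were lower at an unadjusted p under 0.05 (13.1% of all genes were) and the median was -1.03. With library 2 also left out, a setting chosen after seeing the data, 3 were lower at an unadjusted p under 0.05 (3.55% of all genes were) and the median was -0.44. On log2(TPM + 1) without library 2 the median was -0.39, where all genes had 0.15.

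**Figure D2:**
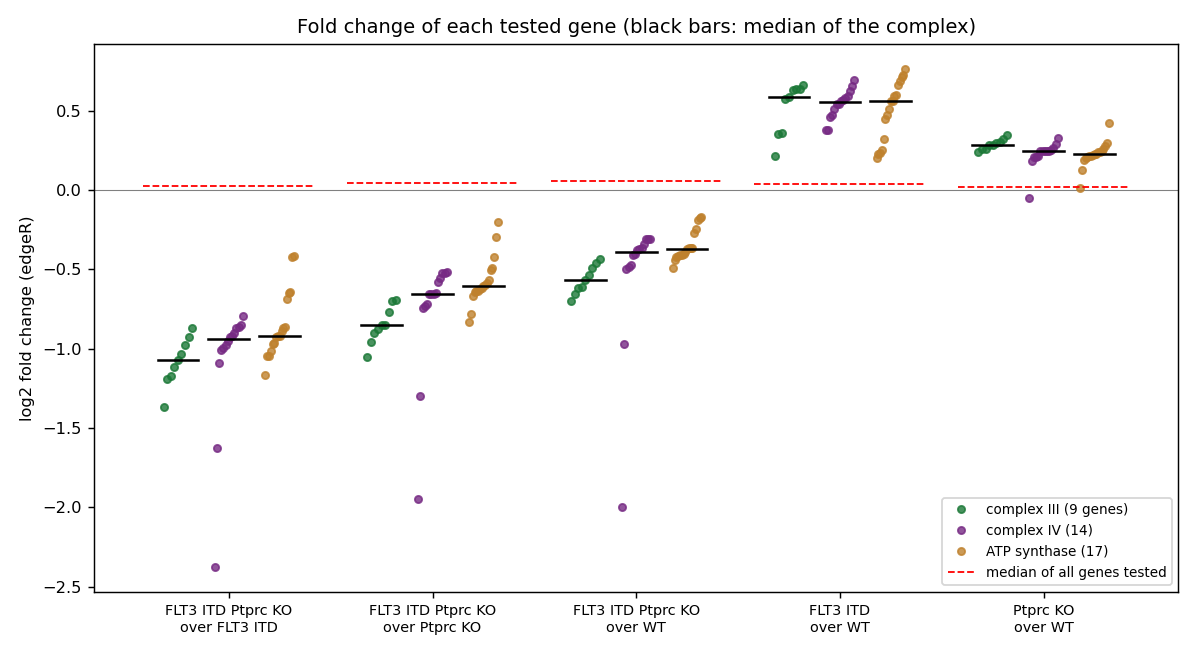
Log2 fold change of each of the 40 tested genes in 5 comparisons, by complex, with the median of each complex (black bars) and the median of all genes tested (dashed lines). In the 3 comparisons of the double mutant all points lie below 0, with Cox6a2 the lowest of each, while in FLT3 ITD over WT and Ptprc KO over WT all points except Cox6a2 in the second lie above 0, and no point passed the edgeR threshold.

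The double mutant was also set against Ptprc KO, which asks what FLT3 ITD does without CD45. Again all 40 fitted values were lower in the double mutant (45.6% of all genes were below 0), with log2 fold changes of -1.95 to -0.20 and a median of -0.65, where all genes had 0.045. By complex the median was -0.85 for complex III, -0.66 for complex IV and -0.60 for the ATP synthase. Called by edgeR at an adjusted p of 0.05 were 0 of 40 (0.091% of all genes), by DESeq2 0 and by limma on log2(TPM + 1) 0. At an unadjusted p under 0.05, 13 were lower, against 9.07% of all genes lower. This count depended on single libraries: it was 1 without double mutant library 1, 2 or 4 (4.27%, 5.93% and 5.27% of all genes) and 1 without Ptprc KO library 2 or 3 (3.88% and 3.92%). It was 28 without Ptprc KO library 4 (13.2% of all genes). Leaving out FLT3 ITD library 2, which is not in this comparison but in the same fit, gave 36 (11% of all genes), and leaving out FLT3 ITD library 4 gave 25 (11.6%). Without double mutant library 3, it was 33 (16.8% of all genes), edgeR called 2 of the 40 lower (4.78% of all genes) and the median was -0.90.

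Cox6a2 had the lowest p of this comparison too. It had 0.184, 0.277, 0.358 and 0.12 CPM in the double mutant, against 0.211, 1.36, 1.51 and 0.607 CPM in Ptprc KO. Library 1 of Ptprc KO lay within the double mutant range. The log2 fold change was -1.95 ± 0.68 (SE) with an adjusted p of 0.231 in edgeR. Atp5md was the 1 gene without overlap, lower in the double mutant (2.84% of all genes were lower without overlap). It had 43.0, 38.6, 58.8 and 43.2 CPM in the double mutant, against 61.8, 100.4, 104 and 60.7 CPM in Ptprc KO, and its log2 fold change was -0.83 ± 0.33 (SE) with an adjusted p of 0.255 in edgeR. For Uqcr10 the log2 fold change was -1.05 ± 0.43 (SE), for Uqcrc1 -0.85 ± 0.37 (SE), for Cox4i1 -0.66 ± 0.31 (SE) and for Atp5b -0.64 ± 0.33 (SE). Atp5l had the smallest difference, -0.20 ± 0.23 (SE).

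Against WT the double mutant showed the same sign, with a median nearer 0 in edgeR with all libraries. All 40 fitted values were below 0 (43.7% of all genes), from -2.0 to -0.17, with a median of -0.41 where all genes had 0.053. None passed in edgeR (0.108% of all genes did), DESeq2 or limma on log2(TPM + 1), and 1 of 40, Cox6a2, was lower at an unadjusted p under 0.05 (3.69% of all genes were lower). Cox6a2 had 0.899, 0.849, 0.653 and 1.39 CPM in WT, and every double mutant library was lower than every WT library, the only gene of the 40 without overlap (2.56% of all genes were lower without overlap). Its log2 fold change was -2.0 ± 0.68 (SE) with an adjusted p of 0.486 in edgeR. Its counts were few, and its gene overlaps Itgad on the opposite strand. Itgad had at most 3 counts in every double mutant and FLT3 ITD library, against 5 to 277 in Ptprc KO and WT libraries, and its part in the Cox6a2 counts was not tested. Uqcrc2, the other core subunit of complex III, had a log2 fold change of -0.66 ± 0.40 (SE), Uqcr10 one of -0.70 ± 0.43 (SE) and Uqcrc1 one of -0.57 ± 0.37 (SE). Cox4i1 had -0.41 ± 0.31 (SE), Atp5b -0.42 ± 0.33 (SE), and Atp5g2 the smallest difference at -0.17 ± 0.15 (SE). Without double mutant library 3 the median was -0.65, and 12 of the 40 were lower at an unadjusted p under 0.05 (12.7% of all genes were).

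FLT3 ITD with CD45 present was addressed by FLT3 ITD against WT. All 40 fitted values were higher in FLT3 ITD (54.5% of all genes were above 0), from 0.20 to 0.76, with a median of 0.56 where all genes had 0.037. None passed in edgeR (0.0413% of all genes did), DESeq2 or limma on log2(TPM + 1). At an unadjusted p under 0.05 in edgeR, 5 were higher, against 5.23% of all genes higher. Atp5e, the gene with the lowest p, had 129.9, 355, 136 and 133 CPM in FLT3 ITD, against 114, 119.9, 109 and 117 CPM in WT. It was the 1 gene of the 40 without overlap (2.89% of all genes were higher without overlap), and libraries 1, 3 and 4 of FLT3 ITD lay only slightly above WT. The log2 fold change was 0.71 ± 0.28 (SE) with an adjusted p of 0.59 in edgeR. Atp5mpl, a small membrane subunit of the ATP synthase, had 0.72 ± 0.30 (SE), Cox7c 0.69 ± 0.30 (SE) and Atp5md, the largest difference, 0.76 ± 0.33 (SE). Cox4i1 had 0.57 ± 0.31 (SE), Uqcrc1 0.36 ± 0.37 (SE) and Atp5b 0.23 ± 0.33 (SE), and Atp5a1 had the smallest difference, 0.20 ± 0.30 (SE).

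This difference rested on 1 library. Without FLT3 ITD library 2 the median log2 fold change was 0.12, where all genes had 0.032, and 0 of the 40 were higher at an unadjusted p under 0.05 (1.52% of all genes were). When FLT3 ITD library 4 was left out, 29 were (7.35% of all genes) and the median was 0.77. Leaving out WT library 1, 3 or 4 gave 1, 1 and 2 (2.03%, 3.46% and 2.65% of all genes). With libraries 1 and 3 summed the median was 0.63, and with library 2 left out as well it was 0.0075, where all genes had 0.023. On log2(TPM + 1) with all libraries the median was 0.19 where all genes had -0.21. Atp5b and Atp5a1 turned round on that scale, at -0.0805 and -0.10. On log2(TPM + 1) without library 2 the median was -0.0805, where all genes had -0.15.

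**Figure D3:**
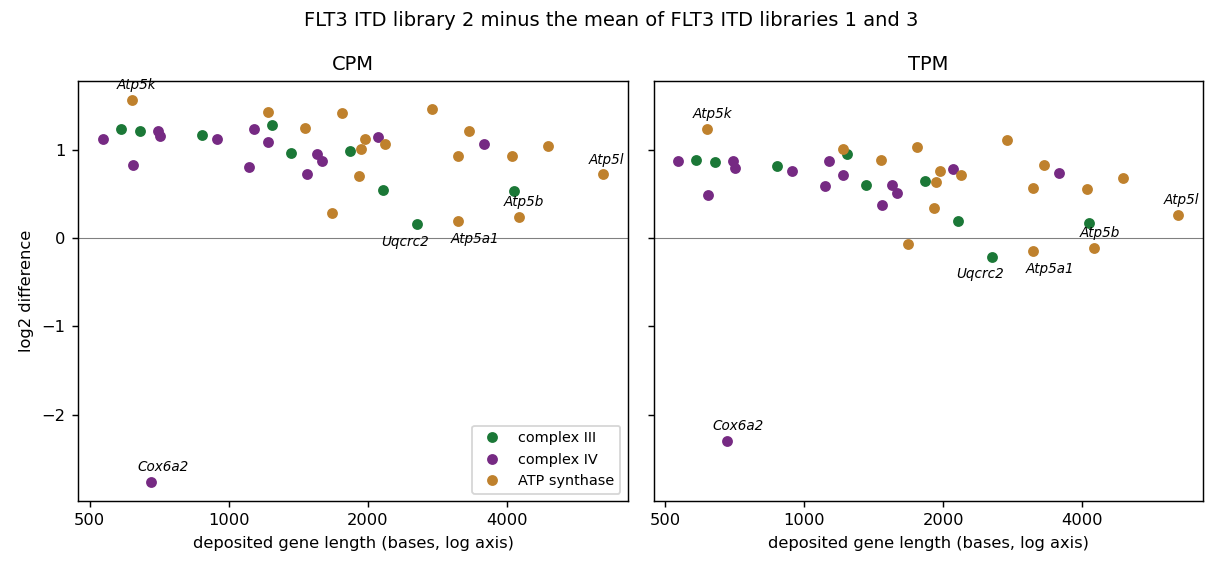
Log2 difference of FLT3 ITD library 2 from the mean of FLT3 ITD libraries 1 and 3 for each tested gene, against the deposited gene length in bases (log axis), on the CPM scale (left) and the TPM scale (right). On the CPM scale 39 of 40 points lie above 0 with a median of 1.06, on the TPM scale 35 of 40 with a median of 0.70. Uqcrc2, Atp5a1 and Atp5b lie near 0, with Cox6a2 far below. Other genes of large deposited length, such as Atp5g1 and Atp5j2, lie well above 0.

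The same library was set against FLT3 ITD libraries 1 and 3 gene by gene. Library 2 exceeded the mean of libraries 1 and 3 by a median of 1.06 in log2 CPM and 0.70 in log2 TPM over the 40 genes, where all tested genes had -0.036 and -0.29. Over the 40 genes the difference went down with length (Spearman rho -0.391 for CPM and -0.419 for TPM, over genes of one set of libraries and given as a description). The extremes on the CPM scale were Atp5k, the e subunit, of 616 bases, at 1.57 and Cox6a2, of 680 bases, at -2.76. Uqcrc2 (2552 bases), Atp5a1 (3135 bases) and Atp5b (4237 bases) were at 0.16, 0.19 and 0.24. Other genes of large deposited length were not near 0: Atp5j2 (3306 bases) was at 1.21 and Atp5g1 (4912 bases) at 1.05. Atp5l (6443 bases) was at 0.72. Whether the deposited length is that of the transcripts made in these cultures was not tested. The median was 1.14 for the subunit genes shorter than their median length and 0.96 for the others. Median length was 1631 bases for the 40 genes and 4513 for all genes tested. After removal of each library's trend with length, the median log2 fold change was 0.26 for FLT3 ITD over WT and -0.66 for the double mutant over FLT3 ITD.

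Ptprc KO against WT, the loss of CD45 without FLT3 ITD, gave the median nearest 0 of the 5 comparisons with all libraries. Without FLT3 ITD library 2 the median of FLT3 ITD over WT was nearer 0, at 0.12, against 0.24 for Ptprc KO over WT in the same fit. The median log2 fold change was 0.25 where all genes had 0.017, 39 of 40 were above 0 (54.9% of all genes) and Cox6a2 was below (45.1% of all genes), and the range was -0.048 to 0.42. None passed in edgeR (0.0331% of all genes did), DESeq2 or limma on log2(TPM + 1), none had an unadjusted p under 0.05 in edgeR (0.339% of all genes higher and 0.504% lower), and in all 40 the library ranges overlapped (0.786% of all genes were higher and 0.62% lower without overlap). The lowest p belonged to Atp5md, with 61.8, 100.4, 104 and 60.7 CPM in Ptprc KO against 58.6, 70.2, 53.3 and 61.1 CPM in WT. Libraries 2 and 3 of Ptprc KO were above all WT libraries and the other 2 were not. Its log2 fold change was 0.42 ± 0.33 (SE). Cox6c, a membrane subunit of complex IV, had 0.29 ± 0.28 (SE), Uqcrq 0.32 ± 0.35 (SE), Uqcrc1 0.28 ± 0.37 (SE), Cox4i1 0.24 ± 0.31 (SE), Atp5b 0.22 ± 0.33 (SE) and Cox6a2 -0.048 ± 0.63 (SE). The median was 0.10 without Ptprc KO library 3, 0.14 without library 2, 0.16 without WT library 3 and 0.38 without Ptprc KO library 4.

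Whether loss of CD45 acted differently with and without FLT3 ITD was tested as an interaction, the double mutant minus FLT3 ITD less Ptprc KO minus WT. All 40 values were below 0 (48.8% of all genes), with a median of -1.20 where all genes had 0.018. None passed in edgeR (0.00827% of all genes did), DESeq2 or limma on log2(TPM + 1), and 36 had an unadjusted p under 0.05, all of them lower (10.1% of all genes were lower). Atp5md gave -1.59 ± 0.47 (SE) with an adjusted p of 0.252 in edgeR. Cox6c gave -1.22 ± 0.40 (SE), Uqcrq -1.49 ± 0.50 (SE), Uqcrc1 -1.21 ± 0.53 (SE), Cox4i1 -1.22 ± 0.44 (SE) and Atp5b -0.87 ± 0.47 (SE). The extremes were Cox6a2 at -2.33 ± 0.92 (SE) and Atp5l at -0.43 ± 0.32 (SE). With FLT3 ITD library 2 left out the median was -0.76, and 17 had an unadjusted p under 0.05 (6.1% of all genes were lower). Leaving out double mutant library 2 gave 22 (7.98% of all genes were lower) and leaving out Ptprc KO library 3 gave 20 (5.69%). The count rose to 39 without double mutant library 3 (16.1%), Ptprc KO library 4 (12.1%) or FLT3 ITD library 4 (14.6%). With libraries 1 and 3 summed the count was 33 (9.88% of all genes were lower) and the median -1.27, and with library 2 also left out the count was 7 (3.77% of all genes were lower). In limma on log2(TPM + 1) with all libraries the count was 5 (2.37% of all genes were lower). The 5 comparisons and the interaction share libraries and are not independent of one another.

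**Figure D4:**
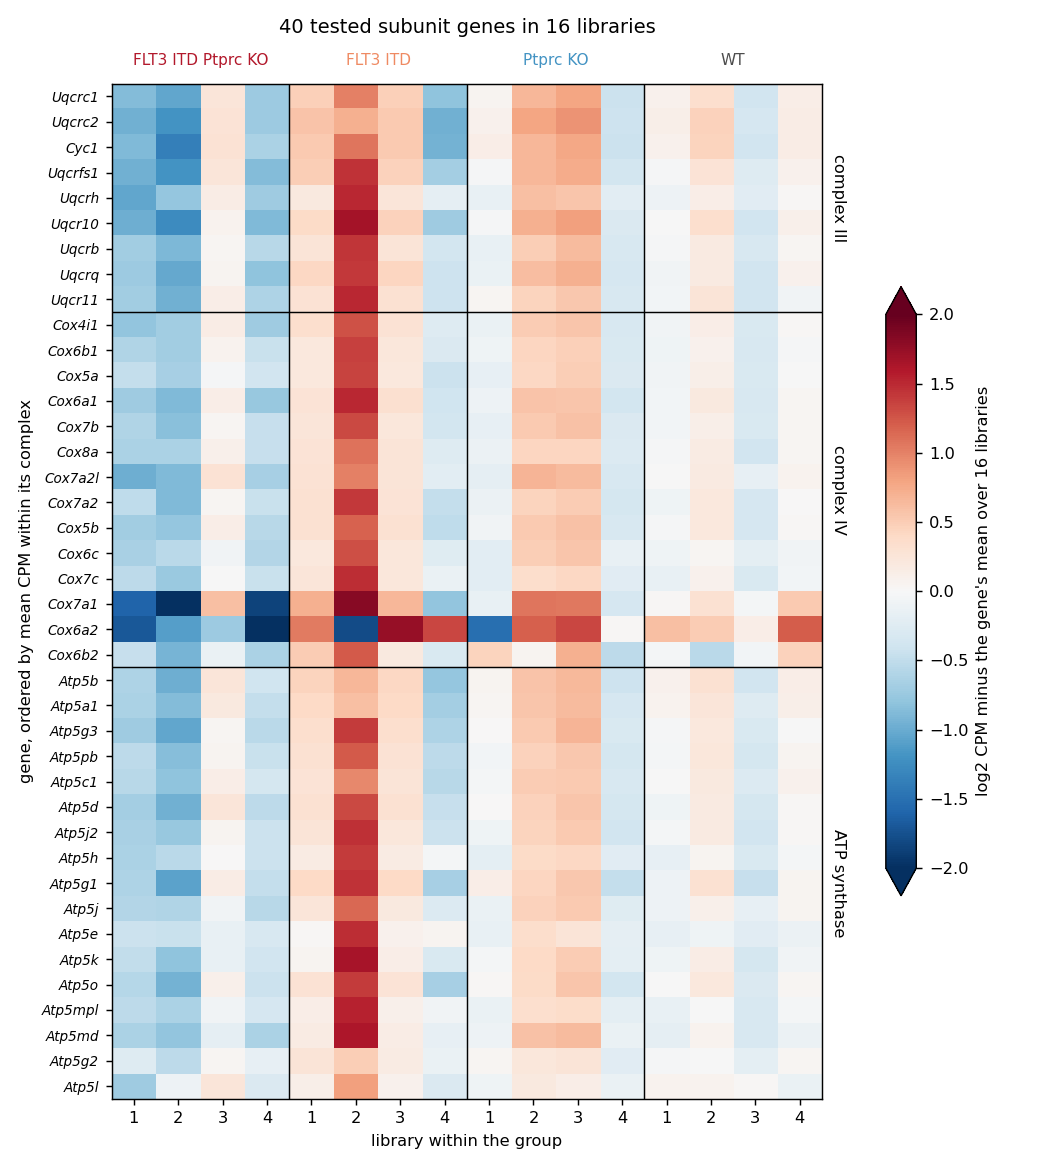
Level of each of the 40 tested genes in each library, as log2 CPM minus the gene's mean over 16 libraries (red above, blue below), with genes grouped by complex and libraries by genotype. Columns share a colour over most rows: FLT3 ITD library 2 is red and double mutant libraries 1, 2 and 4 are blue in nearly every row, while Cox6a2 has FLT3 ITD library 2 in blue.

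The genes varied together from library to library. The correlation of a gene's log2 CPM with the mean of the other 39 over the 16 libraries had a median of 0.973, given as a description, since these libraries share groups and depth. Uqcrq was closest to the rest (0.997) and Cox6a2 farthest (0.271), followed by Cox6b2 (0.838), Atp5l (0.840) and Atp5e (0.859). The mean log2 CPM of the 40 genes was highest in FLT3 ITD library 2 (8.23), then in Ptprc KO libraries 3 (7.62) and 2 (7.54). It was lowest in double mutant libraries 4 (6.43), 1 (6.33) and 2 (6.17). Library 3 of the double mutant (7.11) was in place 7, next to WT library 4 (7.10), and FLT3 ITD library 4 (6.64) ranked just above the 3 lowest.

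The osteoclast markers had nearly the same order. The 5 libraries with the highest mean of the 40 genes were also the 5 with the highest mean of 14 osteoclast markers, FLT3 ITD library 4 was in place 13 by both, and double mutant libraries 1, 2 and 4 were the lowest 3 by both. All 14 markers had a lower fitted level in the double mutant than in FLT3 ITD, with a median log2 fold change of -1.29 (-1.07 without FLT3 ITD library 2), and none passed the edgeR threshold. Their CPM summed to 9920.0 to 50171 in the double mutant, 17469 to 58934 in FLT3 ITD, 27145 to 69422 in Ptprc KO and 31951 to 41764 in WT. In bulk cultures, fewer osteoclasts and less of these transcripts per osteoclast cannot be told apart. Their part in the differences of the subunit genes was not tested.

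**Figure D5:**
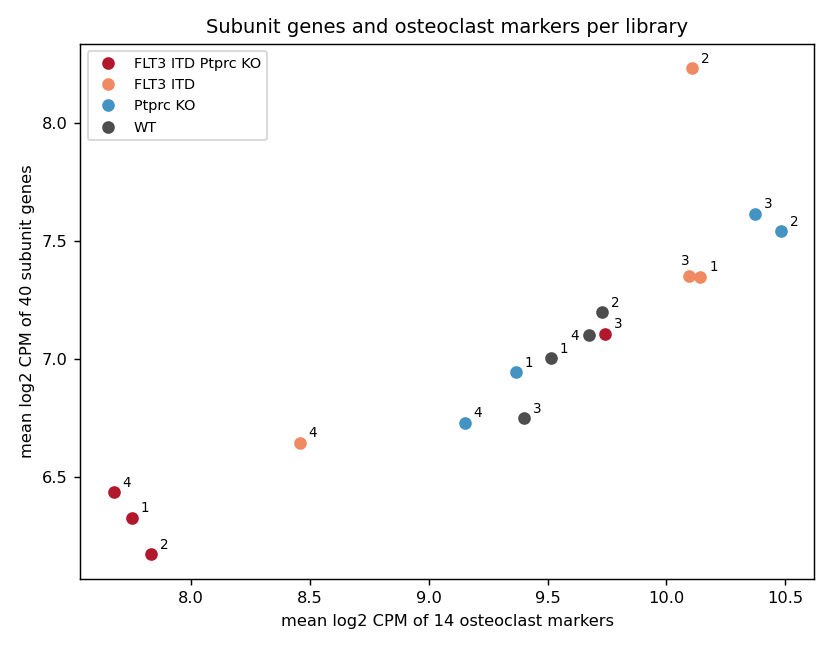
Mean log2 CPM of the 40 subunit genes against the mean log2 CPM of 14 osteoclast markers in each library, coloured by genotype and numbered by library. Double mutant libraries 1, 2 and 4 lie at the lower left, double mutant library 3 lies with the WT libraries, and FLT3 ITD library 2 (8.23) lies above libraries with similar marker levels.

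Markers of other cells varied too. The 8 macrophage markers summed to 2543 to 7369 CPM in the double mutant, 2841 to 6487 in FLT3 ITD, 2592 to 6239 in Ptprc KO and 2815 to 5983 in WT, and the median log2 fold change of the double mutant over FLT3 ITD was 0.36 (5 of 8 above 0), and 0.014 without FLT3 ITD library 2 (4 of 8). The 8 markers of dividing cells summed to 399 to 2556 CPM in the double mutant, 102 to 777 in FLT3 ITD, 407 to 1386 in Ptprc KO and 542 to 944 in WT, with a median log2 fold change of 1.24 in the same comparison and all 8 above 0. The 10 neutrophil markers summed to at most 12.8 CPM in the double mutant, 108 in FLT3 ITD, 188 in Ptprc KO and 91.8 in WT, with Ly6g at 0 counts in the double mutant and WT groups, 3 in FLT3 ITD and 4 in Ptprc KO. Mast cell and basophil, T and NK cell, B cell, erythroid, dendritic and stromal markers each summed to at most 47.3 CPM in any library, with Mcpt4, Mcpt8 and Fcer1a at 0 throughout. No marker of these lists passed the edgeR threshold in any comparison. Their part in the results was not tested.

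Tissue forms of the subunits were compared as shares of their family in TPM. Cox4i2, the lung form of subunit 4 that responds to low oxygen, had 0 to 11 counts in any library and 0.447 TPM on average, against 1294 TPM for Cox4i1. Cox7b2, Cox8b and Cox8c had 0 counts in all 16 libraries, which allows up to 0.0796 to 0.131 CPM per library (3 counts), for counting error only. Subunit 8 was thus detected as Cox8a, with 856 ± 254 TPM in the double mutant, 1272 ± 417 in FLT3 ITD, 1179.6 ± 234 in Ptprc KO and 1104 ± 193 in WT (mean ± SD, n = 4 each). Cox6b2, the testis form, made up 0.101 ± 0.0053% in the double mutant, 0.11 ± 0.00892% in FLT3 ITD, 0.105 ± 0.0489% in Ptprc KO and 0.103 ± 0.0355% in WT of subunit 6b.

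Cox6a2 was a small share of subunit 6a in every library. It made up 0.135, 0.247, 0.153 and 0.0682% in the double mutant and 0.487, 0.0331, 0.731 and 0.988% in FLT3 ITD. Its share was 0.125, 0.451, 0.547 and 0.285% in Ptprc KO and 0.501, 0.283, 0.357 and 0.607% in WT. Every double mutant library was below every WT library, and not below every FLT3 ITD or Ptprc KO library. The difference of the double mutant from WT had an exact permutation p of 0.0286 (two-sided, n = 4 each), the smallest p that 4 against 4 libraries allow, and 0.357 after adjustment over the 30 share comparisons. A few comparisons at that floor could not have passed this adjustment.

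Cox7a1, the muscle and heart form of subunit 7a, made up 1.97, 1.79, 5.25 and 1.53% of its family in the double mutant and 4.51, 5.34, 4.43 and 2.74% in FLT3 ITD. Its share was 3.5, 4.74, 4.78 and 4.0% in Ptprc KO and 3.87, 3.83, 4.12 and 4.74% in WT. Double mutant library 3 was the second highest of the 16 libraries after FLT3 ITD library 2, and the other 3 of its group were the lowest. Its level was 1.87, 1.42, 8.6 and 1.56 CPM in the double mutant, against 9.27, 19.9, 9.0 and 3.29 CPM in FLT3 ITD, and after Cox6a2 it had the largest difference between them, a log2 fold change of -1.62 ± 0.62 (SE) with an adjusted p of 0.142 in edgeR. Cox7a2, the widely expressed form, made up 59.2 ± 6.0% in the double mutant, 56.9 ± 4.03% in FLT3 ITD, 55.3 ± 2.81% in Ptprc KO and 55.4 ± 1.24% in WT. Cox7a2l, a gene related to them, made up 38.2 ± 4.66% in the double mutant, 38.8 ± 5.08% in FLT3 ITD, 40.5 ± 2.25% in Ptprc KO and 40.5 ± 1.11% in WT.

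The 3 genes Atp5g1, Atp5g2 and Atp5g3 encode the same mature c subunit with different import sequences. Atp5g3 made up 77.1, 77.2, 80.1 and 77.8% of the 3 in the double mutant and 80.9, 84.7, 81.4 and 77.6% in FLT3 ITD. Its share was 79.8, 82.7, 83.7 and 80.8% in Ptprc KO and 80.8, 81.7, 80.7 and 80.1% in WT. Every double mutant library was below every WT library, though barely, with 80.114% in double mutant library 3 and 80.116% in WT library 4 (exact permutation p = 0.0286, the smallest possible, adjusted 0.357, two-sided, n = 4 each). Atp5g2 made up 12.9 ± 1.93% in the double mutant, 9.66 ± 3.38% in FLT3 ITD, 9.54 ± 1.46% in Ptprc KO and 10.3 ± 1.04% in WT, with overlapping ranges. Atp5g1 made up 9.08 ± 0.587% in the double mutant, 9.21 ± 0.533% in FLT3 ITD, 8.71 ± 0.623% in Ptprc KO and 8.9 ± 0.657% in WT. Of the 30 share comparisons over these families none passed after adjustment, and 2 had the smallest possible p. With that floor, only many comparisons reaching it together could pass, so the adjusted values could hardly have shown a difference.

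The subunits that mitochondrial DNA encodes for the same complexes were partly measured. In the table mt-Cytb, the cytochrome b of complex III, had at least 82716 counts per library and mt-Co1, the catalytic subunit of complex IV, at least 202192, while mt-Co2, mt-Co3, mt-Atp6 and mt-Atp8 were listed at 0 to 2 counts in every library. mt-Cytb had 3286, 3207, 5174 and 3904 CPM in the double mutant, against 6700.4, 7881, 6622 and 3443 CPM in FLT3 ITD. It had 4578, 9181, 9113 and 4685 CPM in Ptprc KO, against 5524, 6425, 4823 and 5418 CPM in WT. Its log2 fold change in the double mutant over FLT3 ITD was -0.66 ± 0.29 (SE), with an adjusted p of 0.173 in edgeR. For mt-Co1 it was -0.22 ± 0.23 (SE). Apart from mt-Cytb and mt-Co1, the 8 tested genes of mitochondrial DNA encode subunits of complex I. The 8 had a median of -0.71 in the double mutant over FLT3 ITD, all below 0, and of 0.25 in FLT3 ITD over WT. These medians were -0.51 and 0.064 without FLT3 ITD library 2.

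Other genes of the pathway were taken from lists by function or by name, and none passed the edgeR threshold in any of the comparisons. Complex I stands for genes whose symbol starts with Nduf, a rule that does not separate subunits from assembly factors. In the double mutant over FLT3 ITD, complex I had a median log2 fold change of -0.86 (45 of 46 tested genes below 0), complex II with cytochrome c -0.82 (5 of 5) and the citric acid cycle -0.79 (15 of 15). Carriers and import proteins had -0.60 (15 of 15), and the cytosolic ribosomal proteins had -0.44 (85 of 88). In FLT3 ITD over WT the median was 0.54 for complex I, 0.41 for complex II with cytochrome c, 0.25 for the citric acid cycle, 0.33 for the carriers and 0.42 for the ribosome. Without FLT3 ITD library 2, a setting added for these lists after seeing the data, the double mutant over FLT3 ITD gave -0.44 for complex I, -0.50 for complex II with cytochrome c, -0.63 for the citric acid cycle, -0.30 for the carriers and -0.20 for the ribosome. FLT3 ITD over WT then gave 0.12 for complex I, 0.073 for complex II with cytochrome c, 0.086 for the citric acid cycle, 0.11 for the carriers and 0.17 for the ribosome. The lists other than complex I and the ribosome were chosen by knowledge of function, and the difference between a list and the subunit genes was not tested.

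Assembly factors had medians nearer 0 than the subunits they help to assemble, a difference that was not tested. In the double mutant over FLT3 ITD these were -0.65 for complex III (5 of 6 below 0), -0.52 for complex IV (22 of 23) and -0.45 for the ATP synthase (5 of 5). They were -0.27 for complex III, -0.28 for complex IV and -0.25 for the ATP synthase without FLT3 ITD library 2. Fmc1, an ATP synthase assembly factor, had the largest difference among them at -1.33 ± 0.46 (SE), and Cox14, which acts in the synthesis of mt-Co1 protein, had -1.06 ± 0.31 (SE). Bcs1l, the translocase of the Rieske protein, had 0.0093 ± 0.17 (SE), and Cox17, a copper chaperone of complex IV, had 0.34 ± 0.20 (SE).

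Regulators of mitochondrial biogenesis showed no shared direction, with 6 of 13 tested genes below 0 in the double mutant over FLT3 ITD and a median of 0.016. Ppargc1b, the coactivator PGC-1beta known in osteoclast mitochondrial biogenesis, had 17.2, 17.3, 77.6 and 35.2 CPM in the double mutant, against 86.3, 80.0, 83.5 and 14.2 CPM in FLT3 ITD. Its log2 fold change was -0.84 ± 0.54 (SE) with an adjusted p of 0.313 in edgeR. Esrra, the nuclear receptor ERRalpha, had -0.50 ± 0.25 (SE). Nrf1 had 0.33 ± 0.15 (SE) and Myc, a growth regulator, 0.58 ± 0.44 (SE). Ppargc1a had at most 3 counts in any library.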

How the data were processed

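Per the labels' protocols, 500 ng of total RNA per culture was taken through poly(A) selection and a directional library kit with UMI adaptors. The submitters' processing notes name the build GRCm38.p6 and, in no stated order, STAR 2.7.6a, featureCounts 2.0.3, UMI-tools 1.1.1, cutadapt 4.2 and bcl2fastq 2.20.0.422. The sources used here do not give whether counting used strand. The authors deposited counts per gene and TPM per gene, and the depth was 24211724 to 35773313 counts per library. Antisense and overlapping genes (Atp5j with Gabpa, Cox4i1 with Emc8, Cox6a2 with Itgad) and genes with near-identical copies are uncertain to that extent.

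edgeR 4.0.16 (R 4.3.3; filterByExpr, TMM, robust quasi-likelihood F test, two-sided) was fitted to the deposited counts of all 16 libraries with 4 group means. Benjamini-Hochberg adjustment ran over 12093 genes with a threshold of 0.05. The SE of an edgeR log2 fold change is its size divided by the square root of its F statistic. It is approximate and not an output of the test. Between libraries of a group the common dispersion came to 0.137, with 12 residual degrees of freedom. CPM uses TMM-scaled totals, and log2 CPM for library means a prior count of 2. Alternatives were DESeq2 1.42.0, limma 3.58.1 on log2(TPM + 1) and log2(TPM + 0.1), other factors and filters, a length-trend removal (lowess span 0.5), a replicate block and each library left out. TPM folds understate changes of low genes. The steps were tested on simulated counts. Shares within gene families were compared by exact permutation tests, 30 in all.

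The members and lists were chosen with earlier results of these data known. Genes were named in part by a fixed rule: the 3 highest by TPM of each complex, paralogues, the 3 lowest p and the lowest and highest fold change of each comparison, and Cox4i1, Uqcrc1 and Atp5b throughout. Outside it, most of the other subunits given by their group levels, Atp5k, and the single assembly factors and regulators were picked without a rule. Gene models and overlaps are from GENCODE M21, and near-identical copies were matched with blastn at 95% identity over 200 bases. Mitochondrial genes were matched by ID. The Cox4i1 promoter was not in the promoter table. Same-numbered libraries deviated together in all 4 pairs for FLT3 ITD with Ptprc KO, which are not compared directly, but not in all 4 pairs of any groups that are, and the fit without the block was kept.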

Additional observations from a re-analysis of the deposited data

Results flagged for a closer look

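In 5 of the 80 groups of 4 libraries looked at, 1 library lay far from the other 3 on the log2 CPM scale, by the ratio of its gap to the whole range (past the 95% critical value of Dixon's test for 4 values, which chance passes in about 1 in 20 groups). Library 3 of the double mutant was high for Cox4i1 (ratio 0.905, log2 CPM 9.29 against 8.36 to 8.45 in the other 3), for Cox6a1 (ratio 0.836) and for Cox7a1 (ratio 0.85). Library 4 of FLT3 ITD was low for Atp5a1 (ratio 0.849, log2 CPM 9.82 against 10.9 to 11.1). Library 2 of FLT3 ITD was high for Atp5e (ratio 0.956, log2 CPM 8.47 against 7.02 to 7.09). The groups hold the same 16 libraries for genes that vary together, so they are not separate chances. FLT3 ITD libraries 1 and 3 may not be independent values, so the critical value for 4 values may not hold there.

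In Atp5md and Atp5e the libraries of 2 groups lay on opposite sides of the means they were compared with. This was looked for in named genes and in the mean of the tested subunit genes, both for CD45 loss and for FLT3 ITD. It was not counted over all genes, so these 2 genes cannot be set against a share of all genes. For Atp5md, all 4 double mutant libraries were below the FLT3 ITD mean and all 4 Ptprc KO libraries above the WT mean in log2 CPM, library 4 only just. For Atp5e, all 4 double mutant libraries were below the Ptprc KO mean and all 4 FLT3 ITD libraries above the WT mean. The interaction in edgeR was -1.59 on the log2 scale for Atp5md and -1.13 for Atp5e, with adjusted p-values of 0.252 and 0.255, so neither difference passed.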

How the results depend on the processing

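The median of the 40 genes kept its direction in all alternatives run except 1: for FLT3 ITD over WT it was -0.0805 on log2(TPM + 1) without FLT3 ITD library 2, and it was 0.0075 with libraries 1 and 3 summed and library 2 left out, both settings chosen after seeing the data. Under these 2 settings the median was -0.44 and -0.39 for the double mutant over FLT3 ITD and -0.67 and -0.52 for the interaction. DESeq2 called 18 of the 40 genes for the double mutant over FLT3 ITD, and every other alternative with all libraries called 0 of the 40 in every comparison. With 1 library left out at a time, calls ranged from 0 to 35 (double mutant over FLT3 ITD), 0 to 2 (over Ptprc KO) and stayed at 0 elsewhere. The medians ranged from -1.17 to -0.52 (double mutant over FLT3 ITD), -0.90 to -0.51 (over Ptprc KO), -0.65 to -0.30 (over WT), 0.12 to 0.77 (FLT3 ITD over WT), 0.10 to 0.38 (Ptprc KO over WT) and -1.40 to -0.76 (interaction).

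For FLT3 ITD over WT, Atp5b and Atp5a1 turned round in limma: -0.0805 and -0.10 on log2(TPM + 1) with and without the filter, and -0.0806 and -0.1001 on log2(TPM + 0.1). With libraries 1 and 3 summed and library 2 out, Uqcrc1, Atp5b and Atp5a1 gave -0.093, -0.10 and -0.095, and on log2(TPM + 1) without library 2 they gave -0.15, -0.17 and -0.17. In that last setting Atp5l gave 0.081 for the interaction. Cox6a2 in Ptprc KO over WT ranged from -0.40 to 0.27 with 1 library left out. The cause was not tested. Of 559 values of named genes under the other settings, 542 kept their direction and side of the threshold, 4 newly passed and 13 turned round.

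With the replicate number as a block, none of the 40 genes was called (over all genes, 18 were higher and 29 lower for the double mutant over Ptprc KO, where 11 were called without the block) and the median was -0.86 for the double mutant over FLT3 ITD and 0.45 for FLT3 ITD over WT. Same-numbered libraries correlated from -0.633 to 0.851 in their deviations, above 0.1 in 12 of 24 pairs (all 4 pairs for FLT3 ITD with Ptprc KO, 0.142 to 0.851, and fewer than 4 in every other combination of groups), and 1 of 16 libraries was closest to its own number throughout. A fit of the compared groups alone gives no interaction. A spread of 0.45 (SD of the library mean, log2) and 4 libraries a group limit what can be detected.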
